A study of Mus musculus with 18 samples.

Results

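A set of 9 genes of the RAS and MAPK pathway was followed in mouse epidermal cells with and without Zfp36, in skin and in tumors. They were Hras, Nras, Rasa1, Dusp4, Dusp6, Spry2, Spry4, Etv4 and Etv5. They were taken from the count table by their symbols, each of which matched 1 Ensembl gene, and they are 9 of the 52636 genes measured. All 9 passed the filter on low counts over the 6 groups, as did 18252 genes in all. On GRCm38, Hras lies at chr7:141189105-141194005 on the minus strand, Nras at chr3:103058285-103067914 on the plus strand and Rasa1 at chr13:85214780-85289130 on the minus strand. Dusp4 lies at chr8:34807297-34819894 and Dusp6 at chr10:99263231-99267489, both on the plus strand. Spry2 lies at chr14:105891947-105896819, Etv4 at chr11:101769742-101785371 and Etv5 at chr16:22381309-22439719, all on the minus strand. Their exons overlap no exon of another gene, except for 12 bases of Rasa1 shared with Ccnh on the opposite strand.

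The study asked what Zfp36, which encodes the RNA-binding protein tristetraprolin (TTP), does in keratinocytes during chemical skin carcinogenesis. RNA was sequenced from cells of C57BL/6 mice in 6 groups of 3 samples each, made of 3 tissue states in 2 genotypes. Zfp36 ΔK14 mice carried a Cre recombinase driven by the human keratin 14 promoter, which deletes Zfp36 in keratinocytes, and their Zfp36 fl/fl littermates carried the floxed alleles without deletion. The states were mock-treated skin, nontumoral skin next to tumors after the carcinogen DMBA and the promoter TPA (called treated), and papillomas from such skin (called tumors). The labels name the source whole skin, whereas the methods describe a sort of live cells with EpCAM on their surface and without CD45, CD140a and CD31. How many mice gave each sample, and whether the treated skin and the tumors came from the same mice, is not given in the sources used here. The p-values therefore measure the spread between these samples.

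RAS proteins are small GTPases that, when bound to GTP, switch on the RAF, MEK and ERK kinases. Rasa1 encodes a GTPase-activating protein that returns RAS to its inactive state. ERK signaling induces genes that in turn restrain it, among them the dual-specificity phosphatases Dusp4 and Dusp6 and the Sprouty inhibitors Spry2 and Spry4, and it also raises the transcription factors Etv4 and Etv5 of the ETS family. These induced genes are widely used as a readout of pathway output. In DMBA and TPA carcinogenesis Hras is the usual mutated gene, but counts of reads per gene show the amount of a transcript and cannot show a mutation.

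The total count was between 2808550 and 9617985 reads per library. The columns of mock ΔK14 replicates 2 and 3 held the same counts in every gene and were used once, so that this group had 2 libraries and 17 entered the analysis. Zfp36 had between 151.6 and 713.4 CPM (reads of the gene scaled to a common library size) in the 9 fl/fl libraries and between 10.03 and 38.4 CPM in the 8 ΔK14 libraries, as the labels state. Epcam was present in every library, at 87.6 CPM or more. Of markers of the excluded cells, Ptprc stayed at or under 1.5 CPM and Cdh5 at or under 3.10 CPM, while Pdgfra reached 24.7 CPM. In mock ΔK14 replicate 1 a sum of 5 endothelial markers with Pecam1, which encodes CD31, was 35.9 CPM. Cdh5 was at 0.81 CPM there and Kdr, Tek and Tie1 at 3 counts or fewer, so Pecam1 made up most of that sum.

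Replicate 1 of mock skin stood apart in both genotypes. The summed level of Krt25, Krt27 and Krt71, keratins of the hair's inner root sheath, was 1106 and 1183 CPM in these 2 libraries, and 1.35 to 3.95 CPM in the other 3 mock libraries. It was between 217.0 and 668.7 CPM in the 6 treated libraries and between 1.78 and 25.3 CPM in the 6 tumors. These 2 libraries also had the lowest sums of 6 keratinocyte markers, 3261 and 3357 CPM, against 17355 to 20566 CPM in the other mock libraries. The sums varied in the other states too, at 4626 to 20234 CPM in treated skin. In tumors they were 29937, 8302 and 9926 CPM in fl/fl and 23631 to 23899 CPM in ΔK14 mice.

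Sequences are shown for the elements that bear on the question of TTP. TTP binds AU-rich elements in the 3′ untranslated region (UTR) of messenger RNAs and promotes their decay, with UAUUUAU as its core. The heptamer TATTTAT occurred in the longest annotated 3′ UTR of 3 of the 9 genes, with 2 copies in Spry2, 4 in Spry4 and 1 in Etv5. Of all 21022 genes with an annotated 3′ UTR, 27.6% held it. The stricter nonamer TTATTTATT was in none of the 9 genes and in 7.66% of all genes, and the looser pentamer ATTTA was in 7 of the 9 and in 65.2% of all. Hras and Etv4 held none of these letters. The following sites of Spry2 and Etv5 are given in the direction of the transcript with the heptamer in capitals.
Spry2, first site: gtgtaaagaaTATTTATttgaagtttt
Spry2, second site: aaaaaaagaaTATTTATtttaagaggc
Etv5: ttcataagcaTATTTATagctttctaa
The Spry2 sites lie on the minus strand of GRCm38 at chr14:105892093-105892119 and chr14:105892054-105892080, with the heptamers at bases 694 and 733 of an 856-base 3′ UTR. The Etv5 site lies on the minus strand at chr16:22381763-22381789, with the heptamer at base 1691 of a 2161-base 3′ UTR. A match of letters is a description and does not show binding.

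The promoter of Spry2 is shown because its transcript was higher in tumors than in skin in every comparison below. The window runs from 250 bases before to 50 bases after the RefSeq start, at chr14:105896770-105897069 on the minus strand of GRCm38.p6, and the capitals mark the motif CCGGAA, which ETS factors bind.
Spry2 promoter: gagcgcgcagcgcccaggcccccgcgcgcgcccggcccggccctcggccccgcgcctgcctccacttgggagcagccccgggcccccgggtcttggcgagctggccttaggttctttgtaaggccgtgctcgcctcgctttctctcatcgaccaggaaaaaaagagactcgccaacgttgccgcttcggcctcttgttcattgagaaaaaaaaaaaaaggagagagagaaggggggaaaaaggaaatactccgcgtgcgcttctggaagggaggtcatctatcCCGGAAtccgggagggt
Of the 9 genes, 6 had a RefSeq promoter that was used here, namely Hras, Nras, Rasa1, Dusp6, Spry2 and Etv5, the last with 2 start sites. Read on both strands, CCGGAA occurred once in each of the Hras, Rasa1 and Spry2 windows and in 14.9% of 32851 promoters of the same length. The AP-1 motif TGANTCA was in none of the 6 genes and in 7.81% of all promoters. The bare ETS core GGAA, which CCGGAA contains, was in at least 1 window of each of the 6 genes. Of the 2 Etv5 windows, 1 held none. The core was in 96% of all promoters, so it does not separate these genes from others.

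The 9 genes differed widely in how much they varied. Across the 17 libraries the highest level was 1.74 times the lowest for Rasa1, 1.85 times for Nras, 2.09 times for Hras and 2.11 times for Etv5. For the other 5 genes this ratio was 11.3 for Spry2, 14.5 for Dusp6, 16.9 for Etv4, 19.4 for Spry4 and 44.1 for Dusp4. The RAS genes and the RAS regulator were thus among the steadiest of the 9, and the 5 variable genes included all 4 feedback inhibitors. Both Spry4 and Etv4 rested on few reads in some libraries, with the lowest counts at 6 and 7.

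**Figure D1:**
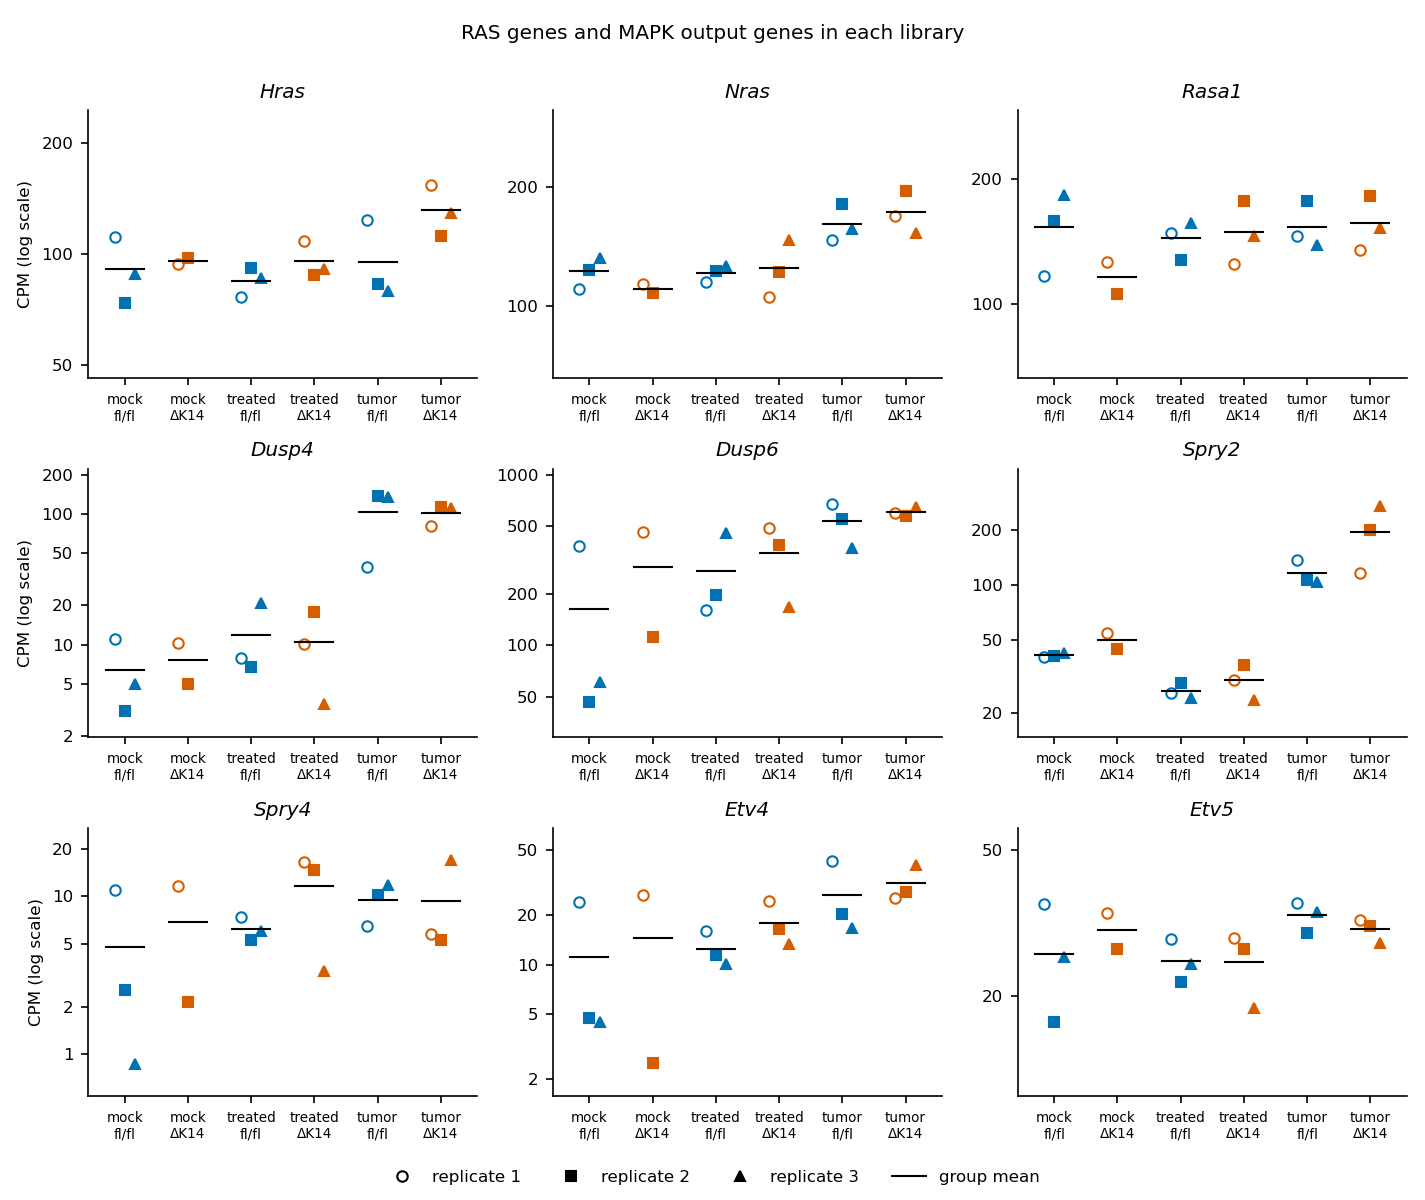
Level of each of the 9 genes (CPM, log scale) in each library, by state and genotype. Open circles are replicate 1, squares replicate 2, triangles replicate 3, and black lines the group means. Dusp4 and Spry2 are higher in all 6 tumors than in all 11 skin libraries, whereas Rasa1 stays between 105.6 and 183.4 CPM everywhere.

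Levels can be compared between genes only per length of transcript. Per kilobase of annotated exon, the median over the 17 libraries was 124 CPM for Dusp6, by far the most abundant of the 9. Hras, Nras, Spry2 and Rasa1 followed with 24.6, 23.7, 20.5 and 19.9 CPM per kilobase. Etv5 had 6.99, Etv4 5.37, Dusp4 4.04 and Spry4 1.37 CPM per kilobase. In tumors the order changed. Dusp6 was at 119 to 215 CPM per kilobase and Spry2 at 49.8 to 128, so that these neighbors overlapped, and Dusp4 at 14.4 to 50.4 overlapped Hras at 21.3 to 41.3 and Nras at 27.5 to 36.6.

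The first comparison concerned the RAS genes themselves in tumors and skin. No difference of Hras, Nras or Rasa1 passed the threshold (fold change above 2 with an adjusted p below 0.05) between tumors and either kind of skin, in either genotype. Nras, a RAS gene like Hras, was nevertheless higher in every tumor than in every mock library of its genotype. Its levels were 146.5, 181.1 and 156.8 CPM in fl/fl tumors and 169.0, 195.2 and 153.0 CPM in ΔK14 tumors. In mock skin they were 110.8, 123.5 and 132.7 CPM in fl/fl and 113.6 and 107.8 CPM in ΔK14 libraries. In treated skin they were 115.4, 122.6 and 126.1 CPM in fl/fl and 105.3, 121.6 and 146.8 CPM in ΔK14 libraries. The 6 tumors overlapped the 11 skin libraries only in that the highest ΔK14 treated library lay just above the lowest fl/fl tumor. The log2 fold change of Nras against mock skin was 0.37 (SE 0.23, adjusted p = 0.342) in fl/fl and 0.55 (SE 0.24, adjusted p = 0.164) in ΔK14. Against treated skin it was 0.38 (SE 0.16, adjusted p = 0.118) and 0.38 (SE 0.18, adjusted p = 0.141).

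Hras, the gene that DMBA usually mutates, had 123.5, 83.2 and 79.4 CPM in fl/fl tumors, 2 within the range of fl/fl skin and 1 above it. In mock fl/fl skin it had 111.6, 73.6 and 88.4 CPM, and in treated fl/fl skin 76.3, 91.8 and 86.4 CPM. In ΔK14 tumors it had 154.0, 112.0 and 129.1 CPM, each above the 94.2 and 97.4 CPM of mock and the 108.4, 88.0 and 91.2 CPM of treated ΔK14 skin. The log2 fold change in ΔK14 was 0.37 against mock (SE 0.26, adjusted p = 0.351) and 0.37 against treated skin (SE 0.19, adjusted p = 0.158). In fl/fl it was 0.02 (SE 0.29, adjusted p = 0.969) and 0.14 (SE 0.21, adjusted p = 0.661). The 95% interval of the fl/fl difference from treated skin ran from -0.35 to 0.62, so that these data leave room for changes below 2-fold. The difference of these changes between the genotypes had an adjusted p of 0.913 with mock skin and 0.756 with treated skin as reference.

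Rasa1 overlapped between tumors and skin in 3 of the 4 comparisons. Its tumor levels were 145.5, 176.5 and 138.2 CPM in fl/fl and 134.6, 181.8 and 152.0 CPM in ΔK14 mice. Mock skin had 116.7, 158.0 and 183.4 CPM in fl/fl and 126.3 and 105.6 CPM in ΔK14 mice. The log2 fold changes were -0.02 and 0.06 in fl/fl against mock and treated skin, and 0.33 and -0.03 in ΔK14, with the lowest adjusted p at 0.392.

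Of the related GTPases outside the 9 genes, Rras2 was called higher in ΔK14 tumors. Its log2 fold change there was 1.84 against mock (adjusted p = 0.0165) and 1.98 against treated skin (adjusted p = 5.21e-04). In fl/fl tumors it was not called, at 0.40 against mock (adjusted p = 0.596) and 0.90 against treated skin (adjusted p = 0.119). The difference of Rras2 between genotypes in tumors, 1.21, was not called either (adjusted p = 0.255).

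Dusp4 and Spry2 rose in tumors of both genotypes, whichever skin served as reference. They were the only 2 of the 9 genes called in each of the 4 comparisons. Among all genes tested, the share called higher was 2.22% for fl/fl tumors against mock skin, 7.5% against treated skin, and 7.05% and 10.5% for ΔK14 tumors. Comparisons within a genotype share the tumor libraries and are not independent, whereas those of the 2 genotypes share none.

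Dusp4 encodes a nuclear phosphatase that inactivates ERK and other MAP kinases. It had 39.5, 138.2 and 135.9 CPM in fl/fl tumors and 80.5, 112.3 and 111.0 CPM in ΔK14 tumors. In mock skin it had 11.1, 3.13 and 5.01 CPM in fl/fl and 10.3 and 5.03 CPM in ΔK14 libraries. In treated skin it had 7.90, 6.78 and 20.98 CPM in fl/fl and 10.2, 17.8 and 3.54 CPM in ΔK14 libraries. Each tumor lay above each skin library, with fl/fl tumor replicate 1 the closest to skin. Its mean rose from 6.40 ± 4.14 CPM (SD, n = 3) in mock to 104.5 ± 56.3 CPM (SD, n = 3) in fl/fl tumors. The log2 fold change against mock skin was 3.98 in fl/fl (SE 0.67, adjusted p = 0.0259), a 15.8-fold difference, and 3.61 in ΔK14 (SE 0.40, adjusted p = 0.00709), or 12.2-fold. Against treated skin it was 3.10 in fl/fl (SE 0.60, adjusted p = 0.0113) and 3.13 in ΔK14 (SE 0.49, adjusted p = 0.00222).

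Spry2, an inhibitor of receptor tyrosine kinase signaling to ERK, had 137.0, 106.7 and 103.9 CPM in fl/fl tumors. In ΔK14 tumors it had 116.6, 198.8 and 267.5 CPM. Mock skin had 40.6, 40.9 and 42.7 CPM in fl/fl and 54.8 and 44.9 CPM in ΔK14 mice. Treated skin had 25.6, 29.3 and 24.1 CPM in fl/fl and 30.4, 36.6 and 23.6 CPM in ΔK14 mice. Treated skin had the lowest levels, but its difference from mock skin was not called in either genotype. Each tumor lay above each skin library. The log2 fold change against mock skin was 1.45 in fl/fl (SE 0.24, adjusted p = 0.0247) and 1.86 in ΔK14 (SE 0.39, adjusted p = 0.0297). Against treated skin it was 2.11 in fl/fl (SE 0.19, adjusted p = 0.00118), or 4.31-fold, and 2.57 in ΔK14 (SE 0.32, adjusted p = 9.81e-04), or 5.95-fold.

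**Figure D2:**
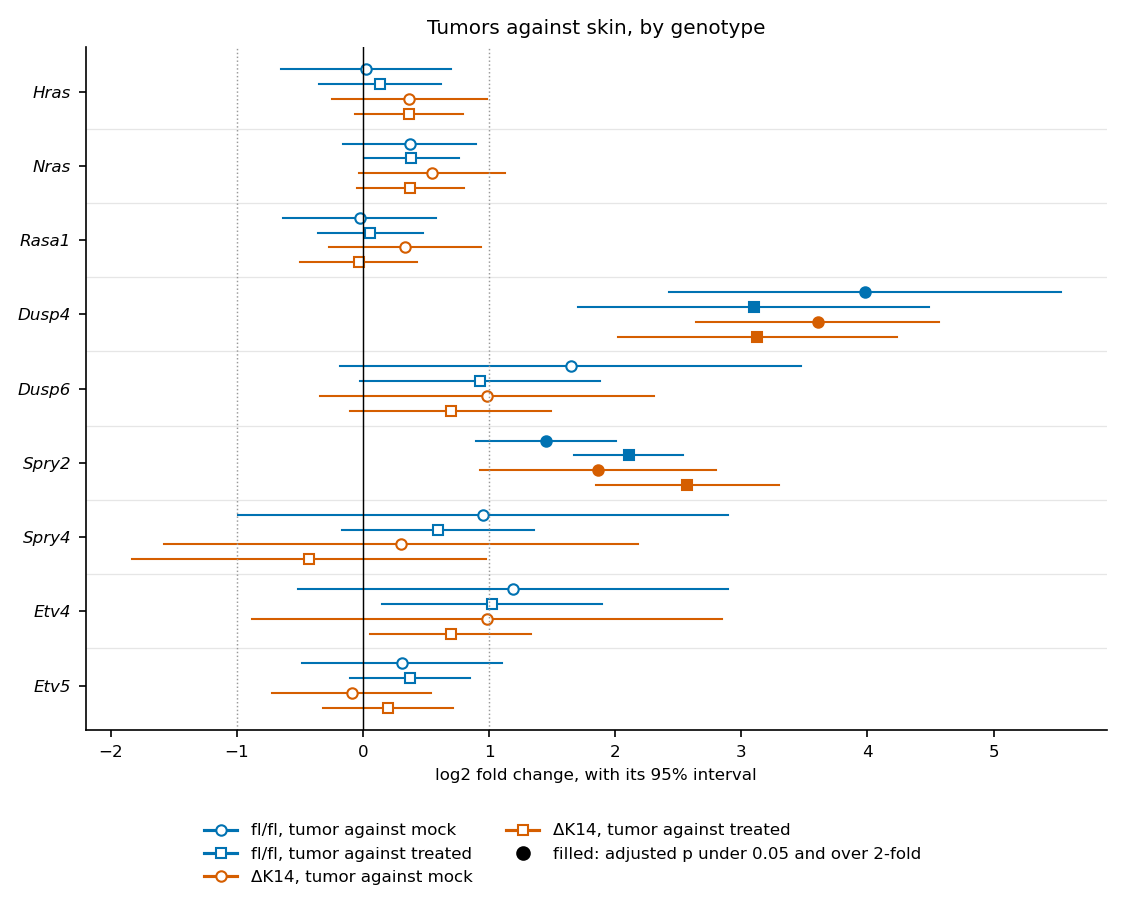
Log2 fold change of each gene in tumors against mock skin (circles) and against treated skin (squares) in fl/fl (blue) and ΔK14 (orange) mice, with 95% intervals from the edgeR fit. Filled points differed over 2-fold (dotted lines) with an adjusted p below 0.05. These are Dusp4, at 3.10 to 3.98, and Spry2, at 1.45 to 2.57.

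The calls against mock skin rested on few libraries, those against treated skin less so. In fl/fl tumors against mock skin, neither gene was called when mock replicate 2 or 3 or tumor replicate 2 or 3 was left out. The log2 fold change of Dusp4 over the 11 alternatives was then 3.65 to 4.64 and its adjusted p 6.93e-09 to 0.108, and for Spry2 these were 1.32 to 1.53 and 3.13e-06 to 0.134. In ΔK14 tumors against mock skin, Dusp4 was called in 10 of 11 alternatives and Spry2 in 8. Without tumor replicate 2 neither passed, at adjusted p = 0.0575 (range over the alternatives 5.00e-16 to 0.0575) for Dusp4 and 0.107 (range 3.81e-06 to 0.108) for Spry2, and without tumor replicate 3 only Dusp4 did. The calls of all genes against mock skin fell in the same fits. In fl/fl, 632 became 30 and 48 without mock replicates 2 and 3. They became 77 and 69 without tumor replicates 2 and 3. In ΔK14, 2144 became 101 and 216 without tumor replicates 2 and 3. The loss of calls was thus not particular to Dusp4 and Spry2. Against treated skin, Spry2 was called in 11 of 11 alternatives in each genotype. Dusp4 was called in 11 of 11 in ΔK14 and in 10 of 11 in fl/fl mice, where its adjusted p without treated replicate 1 was 0.0613 (range 9.75e-16 to 0.0613).

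Dusp6, Etv4 and Spry4 followed a different pattern, in which the mock libraries disagreed. Dusp6, a cytoplasmic phosphatase specific for ERK, had 383.5 CPM in replicate 1 of fl/fl mock skin and 46.4 and 61.3 CPM in the other 2. In ΔK14 mock skin it had 460.5 and 111.7 CPM. Treated skin had 162.2, 198.2 and 454.0 CPM in fl/fl and 486.1, 387.7 and 168.0 CPM in ΔK14 mice. Tumors had 674.0, 549.2 and 371.7 CPM in fl/fl and 593.6, 575.8 and 648.1 CPM in ΔK14 mice. All ΔK14 tumors were above all ΔK14 skin libraries, whereas in fl/fl the groups overlapped. The log2 fold change of Dusp6 against mock skin was 1.65 in fl/fl (SE 0.79, adjusted p = 0.227) and 0.98 in ΔK14 (SE 0.56, adjusted p = 0.257). Against treated skin it was 0.93 (SE 0.41, adjusted p = 0.132) and 0.70 (SE 0.35, adjusted p = 0.151).

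Etv4, a transcription factor of the ETS family that ERK signaling induces, had 24.1 CPM in replicate 1 of fl/fl mock skin and 4.70 and 4.43 CPM in the others. In ΔK14 mock skin it had 26.4 and 2.52 CPM. Treated skin had 15.9, 11.4 and 10.03 CPM in fl/fl and 24.3, 16.4 and 13.3 CPM in ΔK14 mice. Tumors had 42.5, 20.4 and 16.7 CPM in fl/fl and 25.4, 27.7 and 40.7 CPM in ΔK14 mice. Every tumor thus lay above every treated library of its genotype, at a log2 fold change of 1.02 in fl/fl (SE 0.38, adjusted p = 0.0826) and 0.70 in ΔK14 (SE 0.28, adjusted p = 0.0816). Against mock skin it was 1.19 (SE 0.73, adjusted p = 0.341) and 0.98 (SE 0.78, adjusted p = 0.412).

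Spry4, the other Sprouty inhibitor of the 9, had 10.95, 2.54 and 0.867 CPM in fl/fl mock skin and 11.6 and 2.16 CPM in ΔK14 mock skin. Treated skin had 7.36, 5.25 and 5.99 CPM in fl/fl and 16.5, 14.7 and 3.37 CPM in ΔK14 mice. Tumors had 6.5, 10.2 and 11.8 CPM in fl/fl and 5.80, 5.25 and 16.9 CPM in ΔK14 mice. Tumors and skin overlapped in all 4 comparisons. With mock and then treated skin as reference, the log2 fold changes were 0.95 and 0.59 in fl/fl and 0.30 and -0.43 in ΔK14, with the lowest adjusted p at 0.213. Of the 3 ΔK14 tumors, 1 was above the highest treated library for Spry4, against 3 of 3 for Spry2.

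The high mock libraries were the 2 with hair keratins. Replicate 1 exceeded the mean of the other mock libraries of its genotype 7.12-fold in fl/fl and 4.12-fold in ΔK14 mice for Dusp6. For Spry4 it did so 6.42-fold and 5.38-fold, and for Etv4 5.28-fold and 10.5-fold. For Spry2 these ratios were 0.971 and 1.22, for Dusp4 2.72 and 2.04, for Nras 0.865 and 1.05 and for Hras 1.38 and 0.967. In tumors, by contrast, the hair keratins were at 25.3 CPM or less while Dusp6 was at 371.7 CPM or more and Etv4 at 16.7 CPM or more. Without mock replicate 1, Dusp6, Spry4 and Etv4 were called beside Dusp4 and Spry2 in fl/fl tumors against mock skin, where the log2 fold changes were 3.28, 2.57 and 2.498. In ΔK14 mice, where 1 mock library then remained and was assumed to vary like the tumors, Dusp6 and Etv4 were called, at 2.40 and 3.59. The calls of all genes grew as well without these libraries, from 632 to 3277 in fl/fl and from 2144 to 4573 in ΔK14 mice, with 9.45% and 14.7% of the genes tested called higher in tumors. Mock replicate 1 stood apart in some markers of other cells too. The sum of 5 melanocyte markers was 277.6 and 318.4 CPM in these 2 libraries against 41.0 to 93.0 CPM in the other mock libraries. The fibroblast marker Dcn was at 842.0 and 973.1 CPM against 46.9 to 96.9 CPM. It was at 163.9 to 839.8 CPM in treated skin and 10.04 CPM or less in tumors. The sum of 6 fibroblast markers did not set these 2 libraries apart, at 1354 and 1033 CPM against 504.7 to 1673 CPM. Pdgfra went the other way from Dcn, at 3.65 and 1.89 CPM against 6.11 to 24.7 CPM. What part hair follicle cells, melanocytes or fibroblasts had in these levels was not tested.

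**Figure D3:**
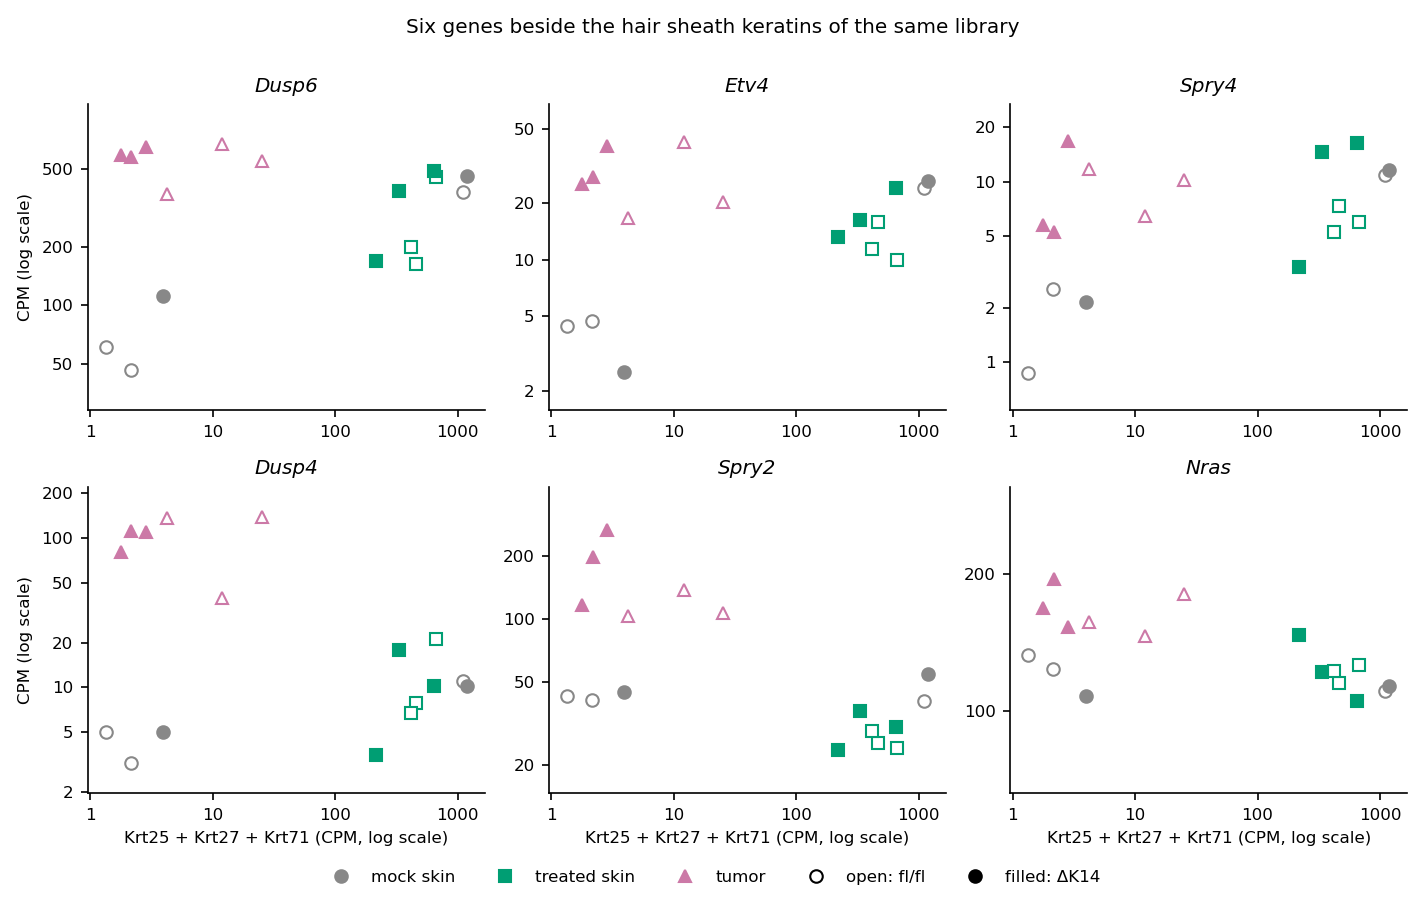
Level of Dusp6, Etv4, Spry4, Dusp4, Spry2 and Nras (CPM, log scale) against the summed level of Krt25, Krt27 and Krt71 (CPM, log scale) in each of 17 libraries. Gray circles are mock skin, green squares treated skin and pink triangles tumors, with fl/fl open and ΔK14 filled. The 2 mock libraries at 1106 and 1183 CPM of hair keratins lie far above the other mock libraries for Dusp6, Etv4 and Spry4, but not for Spry2 or Nras.

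Other cell types also differed between tumors and skin. Sums of 8 hair follicle markers, a list that includes the 3 keratins, were 1545 to 2646 CPM in mock skin. They were 761.4 to 1541 CPM in treated skin and 420.4 to 822.5 CPM in tumors, and did not set mock replicate 1 apart. The 3 keratins alone made up 1106 of 1545 CPM there in fl/fl and 1183 of 1679 CPM in ΔK14 mice. In the other mock libraries they were 1.35 to 3.95 CPM of 1655 to 2646 CPM. The rest of the list was thus lower in mock replicate 1 than in the other mock libraries. Sums of 5 melanocyte markers were 8.82 to 38.1 CPM in tumors and 41.0 to 364.6 CPM in skin. Sums of 6 fibroblast markers were 30.3 to 385.1 CPM in tumors and 375.3 to 1673 CPM in skin, and none of these 6 was at 3 counts or fewer throughout a group. Sums of 9 leukocyte markers were 18.4 to 33.5 CPM in fl/fl and 62.1 to 89.2 CPM in ΔK14 tumors, against 11.8 to 30.5 CPM in 10 skin libraries and 175.7 CPM in ΔK14 treated replicate 3, with Adgre1, Cd207 and Cd3e at 3 counts or fewer in both tumor groups. Sums of 5 endothelial markers were 8.59 to 40.2 CPM over all libraries. The sebaceous marker Scd1 reached 3199 and 6059 CPM in 2 fl/fl tumors and stayed between 128.3 and 205.8 CPM in the other 4 tumors. In bulk libraries, more cells of a type and more RNA per cell cannot be told apart, and the part of these cells in the differences of the 9 genes was not tested.

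Etv5, the paralog of Etv4, varied little. It had 36.0, 29.8 and 34.0 CPM in fl/fl tumors and 32.3, 31.1 and 28.02 CPM in ΔK14 tumors. Mock skin had 35.6, 17.03 and 25.6 CPM in fl/fl and 33.7 and 26.9 CPM in ΔK14 mice. Treated skin had 28.7, 21.9 and 24.5 CPM in fl/fl and 28.8, 26.9 and 18.5 CPM in ΔK14 mice. Its log2 fold changes in tumors were 0.31 and 0.37 in fl/fl against mock and treated skin, and -0.09 and 0.20 in ΔK14, with the lowest adjusted p at 0.215.

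Several genes separated from skin without passing the threshold. In fl/fl mice 3 of the 9 genes were higher in every tumor than in every mock library and 5 than in every treated library, where 15.5% and 21.9% of all genes tested were. In ΔK14 mice 6 of the 9 were so against mock skin and 6 against treated skin, where 28.6% and 28.4% of all genes were. The median log2 fold change of the 9 genes in tumors, with mock and then treated skin as reference, was 0.95 and 0.59 in fl/fl and 0.55 and 0.38 in ΔK14. Over all genes tested it was -0.05, -0.02, -0.06 and -0.03. None of the 9 genes was called lower in tumors.

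Treated skin next to tumors was compared with mock skin to ask what the treatment did without tumor growth. None of the 9 genes was called in either genotype by edgeR, and none by DESeq2. No gene of the whole table was called either, 0% of 16601 tested in fl/fl and 0% of 15891 in ΔK14, although 913 and 763 had an unadjusted p under 0.05 and DESeq2 called 118 and 71. Of the 9 genes, only Spry2 had an unadjusted p under 0.05 in the edgeR test, in each genotype. Its log2 fold change was -0.64 in fl/fl (SE 0.16, adjusted p = 0.628) and -0.73 in ΔK14 (SE 0.29, adjusted p = 1.0). The highest log2 fold change was 0.89 for Dusp4 in fl/fl (SE 0.62, adjusted p = 0.891) and 0.71 for Spry4 in ΔK14 (SE 0.87, adjusted p = 1.0). In fl/fl mice these counts of 0 rested on mock replicate 1. Without it, 3 of the 9 genes were called, all higher in treated skin, namely Dusp6, Spry4 and Etv4, but so were 7.97% of all genes tested, and 2587 genes were called in either direction. In ΔK14 none was called in any alternative.

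None of the 9 genes passed the threshold between ΔK14 and fl/fl cells in any tissue state. In mock skin 0% of 15920 genes tested were called between ΔK14 and fl/fl, in treated skin 0.00616% of 16232 and in tumors 0.0284% of 14067. None of the 9 had an unadjusted p under 0.05 in any of these comparisons, and DESeq2 called none. Among all genes, 1 was called in treated skin, Zfp36 itself, and 4 in tumors, Zfp36 among them, while 253, 901 and 1975 genes had an unadjusted p under 0.05 in mock skin, treated skin and tumors. DESeq2 called 3, 36 and 366 genes there. In mock skin, with 2 against 3 libraries, Zfp36 had a log2 fold change of -4.13 and was not called. Leaving out fl/fl replicate 1 in tumors raised that count to 2613 genes, none of the 9 among them.

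In tumors the genotypes overlapped for all 9 genes, where 17.9% of all genes tested did not overlap. Spry2 had the largest difference, with 198.8 and 267.5 CPM in 2 ΔK14 tumors above the 3 fl/fl tumors and 116.6 CPM in the third within them. Its log2 fold change was 0.61 (SE 0.29, 95% interval -0.06 to 1.28, adjusted p = 0.396), and over the alternatives it ran from 0.36 to 0.89. Hras followed with 0.34 (SE 0.23, 95% interval -0.20 to 0.88, adjusted p = 0.538). Etv4 had 0.13, Dusp6 0.06, Nras -0.04, Rasa1 -0.11, Spry4 -0.20, Dusp4 -0.20 and Etv5 -0.26. The signs of Nras, Rasa1, Dusp4, Dusp6, Spry4 and Etv4 turned in at least 1 alternative. For Nras the 95% interval was -0.49 to 0.40 and for Dusp6 -0.48 to 0.59, so differences of 2-fold lie outside them, whereas for Dusp4 the interval of -1.18 to 0.78 includes a 2-fold decrease. The 3 genes with the AU-rich heptamer, Spry2, Spry4 and Etv5, took 0.61, -0.20 and -0.26, and none was called.

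**Figure D4:**
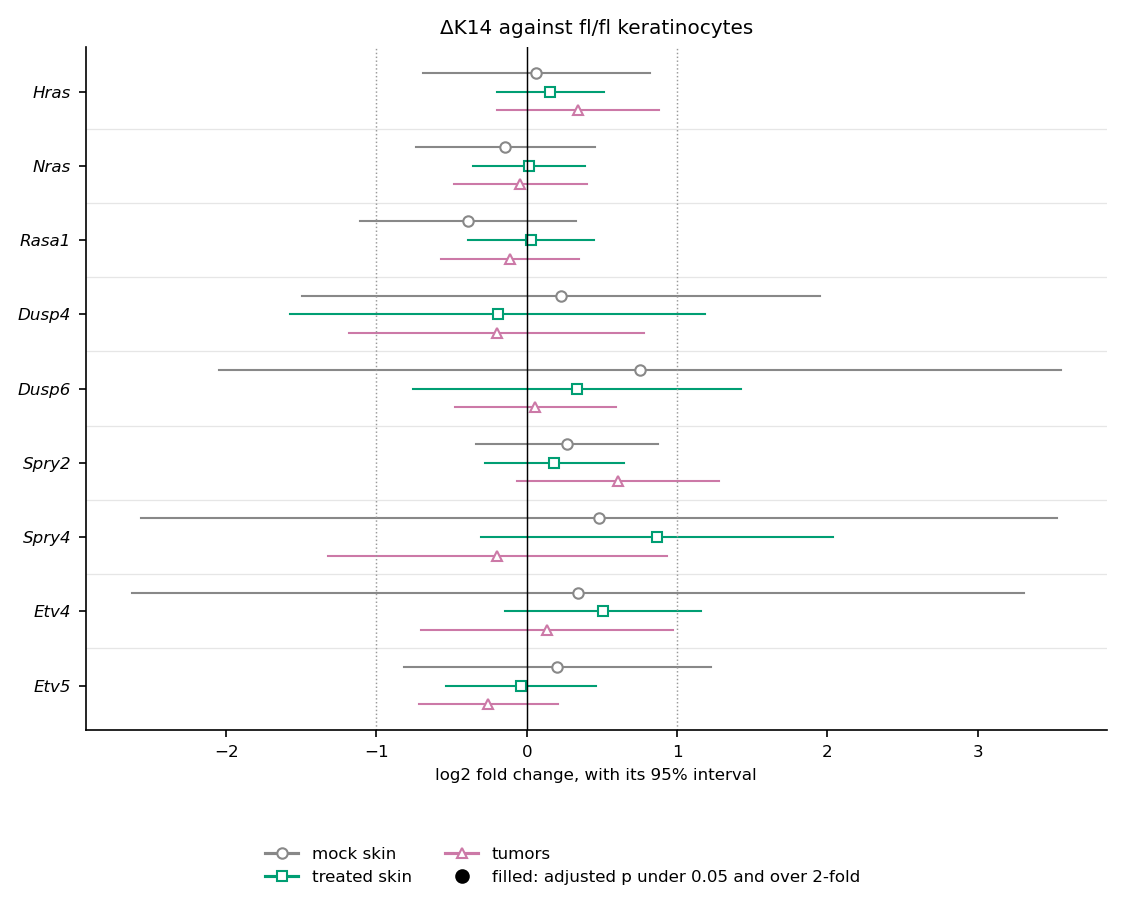
Log2 fold change of each gene between ΔK14 and fl/fl keratinocytes in mock skin (gray circles), treated skin (green squares) and tumors (pink triangles), with 95% intervals from the edgeR fit. No point is filled, which would mark a gene called, and every interval contains 0.

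In mock skin the differences between genotypes ran from -0.39 for Rasa1 (SE 0.29, adjusted p = 1.0) to 0.75 for Dusp6 (SE 1.12, adjusted p = 1.0). In treated skin these differences ran from -0.19 for Dusp4 (SE 0.60, adjusted p = 0.975) to 0.86 for Spry4 (SE 0.51, adjusted p = 0.906). The change from skin to tumor was then compared between genotypes with an interaction term. None of the 9 genes was called, and the share of all genes was 0% of 17388 with mock and 0.0118% of 17017 with treated skin as reference. Of the 9, none had an unadjusted p under 0.05, against 1423 and 2243 of all genes, and DESeq2 called none of the 9 and 31 and 230 of all. With mock skin the differences of the log2 fold changes (ΔK14 minus fl/fl) ran from -0.66 for Dusp6 (SE 1.11, adjusted p = 0.948) to 0.41 for Spry2 (SE 0.43, adjusted p = 0.892). With treated skin they ran from -0.999 for Spry4 (SE 0.78, adjusted p = 0.617) to 0.49 for Spry2 (SE 0.38, adjusted p = 0.613).

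The rest of the pathway was described by lists of genes grouped by role, 64 genes beside the 9. Between genotypes none of the 57, 59 and 56 that were tested in mock skin, treated skin and tumors was called. Without fl/fl tumor replicate 1, 7 were called higher and 6 lower in ΔK14 tumors. In that fit 2613 of all 15463 genes tested were called, and 7.32% of those tested were called higher. Against mock skin, 6 rose and 1 fell of the 58 tested in fl/fl tumors, and 11 rose and 3 fell of 56 in ΔK14 tumors. Against treated skin, 11 rose and 6 fell of 59 in fl/fl, and 16 rose and 5 fell of 57 in ΔK14 tumors. The median log2 fold change of the tested genes of these lists was 0.03 and 0.18 in fl/fl and 0.20 and 0.24 in ΔK14 tumors, with mock and then treated skin as reference. Of all genes tested, 1.88% were called lower in fl/fl tumors against mock and 10.5% against treated skin, and 7.22% and 15.5% in ΔK14 tumors. With each library left out in turn, the number that rose in fl/fl tumors against mock skin was between 0 and 14. The 14 came without mock replicate 1, where 9.45% of all genes tested rose. The number was 0 without mock replicate 2 or 3 or tumor replicate 2 or 3, where 0.127% to 0.428% rose. In ΔK14 tumors against mock skin it was 5 without tumor replicate 1 and 2 without tumor replicate 2 or 3. Of all genes tested, 2.23%, 0.576% and 1.22% rose there. Against treated skin it was 8 to 12 in fl/fl tumors, where 3.28% to 10.4% of all genes rose. In ΔK14 tumors it was 15 to 17, where 7.85% to 12.1% rose.

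Upstream of the kinases, Rasa4, a RAS GTPase-activating protein like Rasa1, rose in all 4 comparisons. Its log2 fold changes were 4.11 and 3.29 in fl/fl against mock and treated skin and 5.17 and 4.73 in ΔK14. Rasa4 failed the low-count filter when the genotypes were compared in mock skin, so its changes against mock skin rest on few mock reads. Of the adaptors, Gab2 fell by 2.91 in fl/fl and 1.68 in ΔK14 tumors against treated skin. Grb2, which brings the exchange factor SOS to receptors, rose by 1.11 in ΔK14. In fl/fl Grb2 rose by 0.78, short of 2-fold (adjusted p = 0.0165). Of the 6 exchange factors tested in fl/fl tumors against treated skin, only Rasgrf1 was called, and it fell by 2.65.

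In the kinase cascade, Map2k1, which encodes the ERK kinase MEK1, rose in all 4 comparisons, by 1.58 and 1.59 in fl/fl against mock and treated skin and 2.14 and 1.53 in ΔK14. Braf, a kinase upstream of it, fell by 1.44 in fl/fl and by 1.09 in ΔK14 tumors against treated skin. Among the phosphatases, Dusp5, a nuclear ERK phosphatase, rose in all 4 comparisons, by between 1.36 and 1.82. Dusp7 rose by 1.59 in fl/fl and 2.11 in ΔK14 tumors against treated skin, and Dusp9 by 3.12 and 2.92. Dusp8, chosen after its values were seen, fell by 1.64 in ΔK14 tumors against treated skin.

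Within the Sprouty family, Spry1 and Spry2 moved in opposite directions, while Spry4 was not called. Spry1 fell in all 4 comparisons, by 2.93 and 1.95 in fl/fl against mock and treated skin and by 3.25 and 2.00 in ΔK14, whereas Spry2 rose in each. Among the ETS factors, Etv4 and Etv5 were not called. Against treated skin, Ets1 rose by 2.29 in fl/fl and 4.24 in ΔK14 tumors, Ets2 by 1.21 and 1.16, and Elk3 by 3.27 in ΔK14. In fl/fl tumors Elk3 was 1.34 higher than in treated skin, which was not called, and 2.51 higher than in mock skin, which was called. Of 10 other output genes of ERK, 4 rose in fl/fl and 6 in ΔK14 tumors against treated skin. Fosl1, a subunit of AP-1, rose by 2.33 and 2.21, Phlda1 by 3.04 and 2.804, and Plaur, the urokinase receptor, by 4.02 and 4.01. Egr1, an immediate early gene that ERK induces, was called lower in both, and in ΔK14 it fell by 1.58. Egr1 and the ΔK14 value of Plaur in this comparison were chosen after their values were seen. These lists were drawn up with results of these data known, and the share of genes called higher is that of all genes given above.

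**Figure D5:**
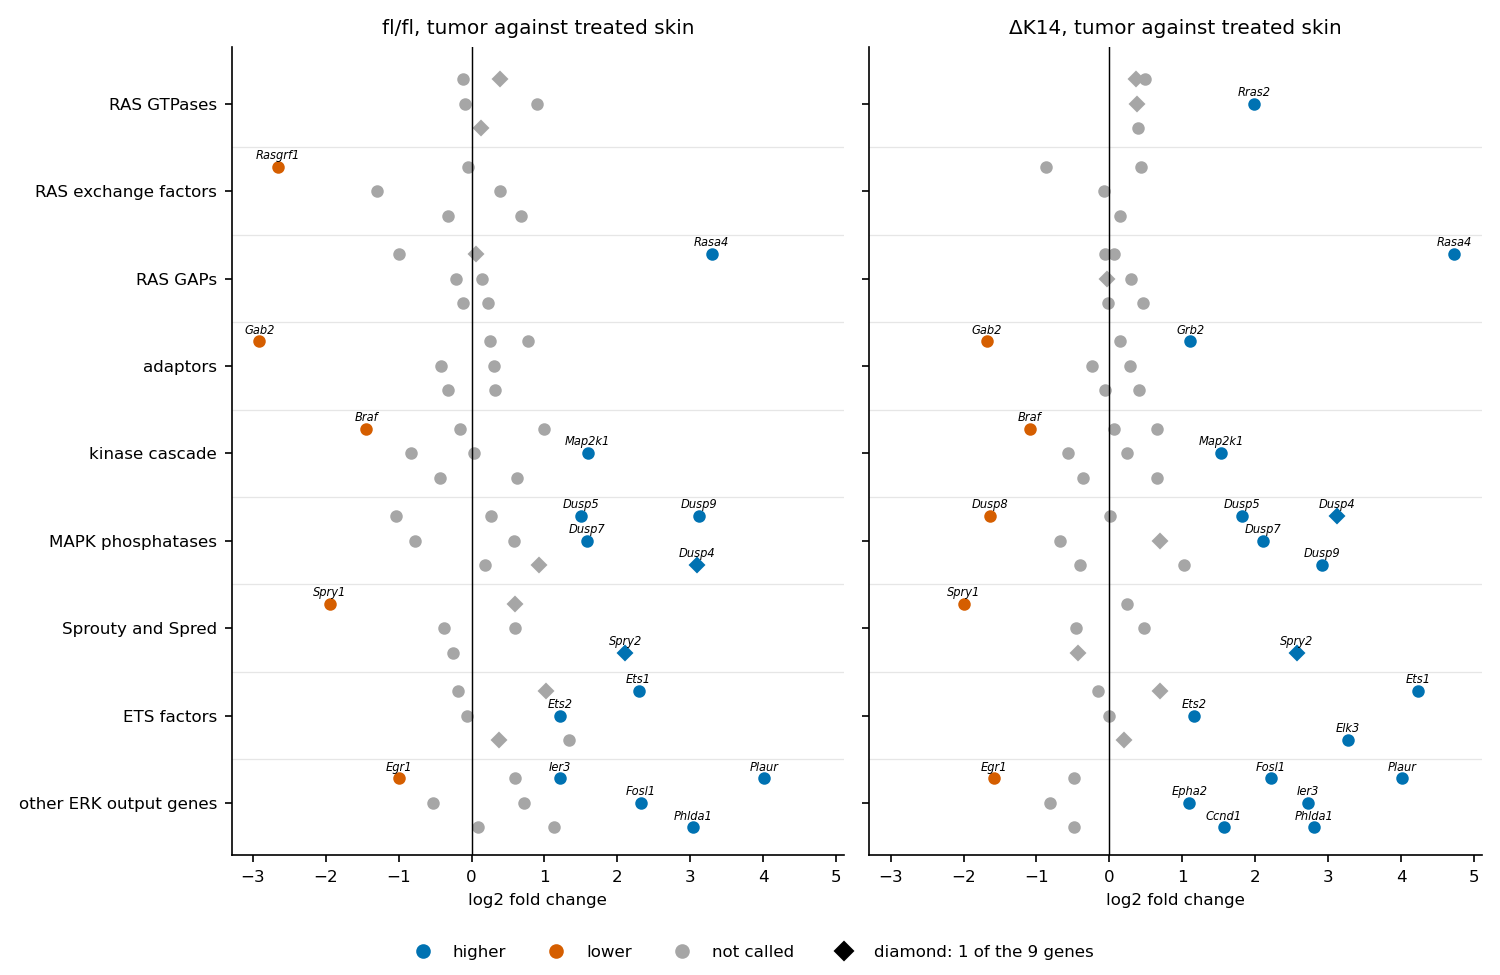
Log2 fold change of genes of 9 role lists in tumors against treated skin, in fl/fl (left) and ΔK14 mice (right). Blue points rose, orange points fell (over 2-fold, adjusted p below 0.05) and gray points were not called, with diamonds for the 9 genes. Rasa4, Map2k1, Dusp4, Spry2, Plaur and Phlda1 lie to the right in both panels and Spry1, Gab2, Braf and Egr1 to the left.

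For each of the 9 genes, the 2 genes nearest in pattern were found among the 18252 genes, by the root mean square difference of log2 CPM after centering each gene on its mean over 17 libraries. For Spry2 they were Pim1 and Ehd1, at 0.27 and 0.29 against its own spread of 1.08. For Dusp4 they were the antisense RNA gene Gm45875 and Rassf8, at 0.52 and 0.56 against a spread of 1.85. For Dusp6 they were Ahcy and Kcnk5, at 0.39 and 0.39 against 1.16, and for Etv4 Nme1 and Slc7a5, at 0.33 and 0.34 against 1.06. For Spry4 they were Mtcl1 and Mir5114, at 0.42 and 0.47 against 1.03. For the genes that varied little the distances were near 0.13 for Hras (Eif4h, Taf10) and Rasa1 (Usp34, Rapgef6), 0.10 and 0.12 for Nras (Fbxo28, Slc30a9), and 0.20 and 0.21 for Etv5 (Nup62, Tmx4).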

How the data were processed

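RNA of the sorted cells was prepared with the Ovation SoLo kit and sequenced on an Illumina HiSeq. The authors deposited raw counts per gene in a table named for featureCounts, whereas the submitters' processing notes list Trimmomatic 0.36, STAR 2.5.3, HTSeq 0.9.1, DESeq2 and the build mm10 without roles. Annotation release, strand and duplicates are not given in the sources used here, so counting precision covers counting error only.

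For each of 11 comparisons, edgeR 4.0.16 (R 4.3.3, limma 3.58.1) fitted the libraries of its groups after filterByExpr and TMM scaling. Its two-sided quasi-likelihood F test was adjusted by Benjamini-Hochberg over all genes tested, and calls required a 2-fold change with an adjusted p below 0.05. Intervals are at 95%. CPM were set on 1 TMM scaling of 17 libraries. Mock ΔK14 replicates 2 and 3, equal in 100% of the 13240 genes compared, counted as 1 sample, while other pairs were equal in at most 2.17%. The script was tested on simulated data. Total counts per library (2808550 to 9617985) limit the precision of genes with few CPM.

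Positions and 3′ UTRs came from GENCODE M21 (GRCm38), which held 52403 of the gene IDs, and promoters from RefSeq (GRCm38.p6). All 9 genes were named, with up to 3 called genes per pathway list by smallest p. Some genes of the lists are not reported here, though the counts of the lists include them. The genes and lists were chosen with earlier results of these data known. Alternatives were DESeq2 1.42.0, RLE scaling, no filter, 1 fit of all libraries, a replicate block, the repeated column as a second library and leaving out each library.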

Additional observations from a re-analysis of the deposited data

How the results depend on the processing

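Calls of the 9 genes were the same with DESeq2, RLE scaling and 1 fit of all libraries, and the cause of the changes below was not tested. In no comparison with 3 pairs did every pair of same-numbered libraries deviate together. In mock skin the 2 pairs did (r = 0.78 and 0.57 across genes), as in ΔK14 treated against mock skin (0.57 and 0.14). In ΔK14 tumors against mock skin both were positive but small (0.094 and 0.12). However, mock ΔK14 had 2 libraries, whose deviations from their mean are equal and opposite, so the 2 values of a comparison are not independent. Besides, 2 pairs are too few to take the numbers as a pairing. With the replicate block the genes called fell from 2 to 0 in fl/fl tumors against mock skin and from 2 to 1 (Dusp4) in ΔK14, and the log2 fold change of Spry4 in the latter was -0.10. Without the low-count filter Dusp6 was called as well against mock skin, 3 genes in each genotype. With each library left out in turn, the number called was 0 to 3 for fl/fl treated against mock skin, 0 to 5 for fl/fl tumors against mock, 1 to 3 for fl/fl tumors against treated, 0 to 4 for ΔK14 tumors against mock and 2 to 3 for ΔK14 tumors against treated skin. It stayed at 0 between genotypes and for the interactions. With both mock replicate 1 libraries left out, chosen after seeing the data, none of the 9 was called between genotypes in mock skin or in the interaction with mock skin.

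Over 655 alternative values of 57 log2 fold changes, 44 changed sign, none of them of a called change. Leaving out a library gave -0.60 to 2.46 for Dusp6 between genotypes in mock skin, -0.83 to 0.51 for Dusp4 in treated skin, and in tumors -0.11 to 0.092 for Nras, -0.21 to 0.0078 for Rasa1, -0.55 to 0.043 for Dusp4, -0.14 to 0.29 for Dusp6, -0.10 to 0.63 for Etv4 and -0.88 to 0.12 for Spry4. In fl/fl tumors it gave -0.20 to 0.22 for Hras and -0.17 to 0.13 for Rasa1 against mock, and -0.074 to 0.26 and -0.036 to 0.14 against treated skin. In ΔK14 tumors it gave -0.15 to 0.14 for Etv5 and -0.44 to 2.06 for Spry4 against mock, and -0.14 to 0.14 for Rasa1 against treated skin. For the interaction of Dusp6 with mock skin it gave -2.31 to 0.74. Between genotypes in tumors, Nras was 0.13 and Rasa1 0.063 without the filter and 0.093 and 0.025 in 1 fit. In fl/fl tumors against mock skin, Rasa1 was 0.0027 with DESeq2, 0.0019 with RLE and 0.0078 in 1 fit, and Hras -0.027 without the filter. In ΔK14 tumors Etv5 was 0.035 against mock skin without the filter and 0.0050 in 1 fit, and Rasa1 0.027 and 0.067 against treated skin.

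The nonamer left 0 genes with an AU-rich element and the pentamer gave 7 against 3 with the heptamer. The ETS core was in a promoter of 6 genes, against 3 for CCGGAA. Over all genes the count called in fl/fl tumors against mock skin was 632, and 2201 with DESeq2, 2595 without the filter, 3205 in 1 fit and 244 with the block. With each library left out in turn it was 30 to 3277. In ΔK14 it was 2144, and 4154 without the filter and 938 with the block. In fl/fl tumors against treated skin it was 2764, and 4316 without the filter and 1831 with the block. Between genotypes in tumors it was 4, and 366 with DESeq2, 1393 without the filter, 122 in 1 fit and 2613 without fl/fl tumor replicate 1. In mock skin it was 0, and 110 with the block. In treated skin it was 1, and 36 with DESeq2 and 218 without the filter. For treated against mock skin it was 0 in both genotypes, and in fl/fl 118 with DESeq2, 30 without the filter and 2587 without mock replicate 1, and in ΔK14 71 with DESeq2, 212 without the filter and 43 with the block. For the interactions it was 0 with mock and 2 with treated skin, and 31 and 230 with DESeq2 and 188 and 1003 without the filter. Without the filter the median of all genes shifted by 0.17 between genotypes in tumors and by 0.12 in ΔK14 tumors against mock skin. Depth limits Spry4 and Etv4, with 6 and 7 reads in their lowest libraries.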
